A study of Mus musculus with 6 samples.

Results

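The genes described here mark bile duct epithelium and the ductular reaction, the growth of small bile ductules in injured liver. They were chosen by symbol as *Epcam*, *Cldn7*, *Cldn4*, *Sox9*, *Sox4*, *Prom1*, *Cd24a*, *Muc1* and *Cftr*, which makes 9 of the 25403 genes listed in the count table, each with 1 row there. The choice was made with earlier results of these data known. All 9 passed the filter on low counts and belong to the 14496 genes tested. Bulk RNA-seq of poly(A) RNA was carried out on frozen livers of 3 mice labelled WT and 3 labelled *Themis* KO. The WT genotype is given as wild-type C57BL6/J and the other as *Themis* KO, a knockout of the whole body in the study's text. The strain background of the knockouts and the sex of the animals are not given in the sample labels. The study's text describes the WT and *Themis* KO mice of its feeding experiment as male. Its methods also name livers of both sexes for gene expression, and the sex of these 6 mice is not stated. All 6 mice had eaten a MASH diet (for metabolic dysfunction–associated steatohepatitis, with 2% cholesterol, fructose for 20 kcal% and fat for 40 kcal%) for 3 months from the age of 10 to 12 weeks, so no liver on a standard diet enters the comparison. Since such a knockout affects every cell, T cells included, a difference in liver cannot be placed in 1 cell type.

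The libraries held between 20679642 and 25649767 counts, and levels are given as CPM, counts scaled to the library size after TMM normalization. *Themis* encodes a signaling protein of T cells, and the study's text reports its induction in hepatocytes of MASH livers as well. Which cells its RNA came from here was not tested. *Themis* stood at 8.07, 25.6 and 12.0 CPM in the livers labelled WT 1, 2 and 3. Those labelled KO 1, 2 and 3 had 8.63, 7.74 and 9.97 CPM. The ranges overlapped (log2 fold change −0.79, SE 0.38, edgeR adjusted p = 0.199), so the counts over the whole gene do not separate the labels, and the exons that the allele lacks are not given in the sources used here. Of the T cell markers, 0 of 4 tested passed upwards and 1 downwards, *Cd4*, a coreceptor of helper T cells, with 2.02, 1.06 and 1.82 CPM in the livers labelled WT and 0.595, 0.516 and 0.661 CPM in those labelled KO (log2 fold change −1.46, SE 0.32, edgeR adjusted p = 0.0386). Groups are named by their labels. A second feature splits the livers otherwise than the genotype does. Of the counts shared by mitochondrial *mt-Nd3* and its pseudogene *Gm28438* on chromosome 1, the pseudogene took 96.6% and 96.8% in the livers labelled WT 1 and WT 2 and between 2.20% and 3.26% in the other 4.

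Cholangiocytes, the cells that line bile ducts, make a small part of the liver, and hepatocytes make most of it. In chronic injury, cells with biliary features multiply around the portal tracts, arising from existing ducts or from hepatocytes that take on biliary genes, and they carry adhesion molecules, claudins and transcription factors that mature hepatocytes hold at low levels or lack. In whole liver RNA, fewer cells of a type and less RNA per cell cannot be told apart, and neither can more cells and more RNA per cell.

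Each of the 9 genes had a higher mean in the livers labelled KO, and *Sox4* and *Cldn7* passed the test (edgeR adjusted p under 0.05). Among all genes tested, 4.97% passed in that direction and 4.14% in the other, in which no ductular gene passed. *Sox4* and *Cldn7* also exceeded a 2-fold difference, as did 1.86% of all genes tested. A positive log2 fold change was found in 9 of 9 against 51.0% of all genes, with a median of 0.96 against 0.0095 over all genes tested. For 6 of the 9 genes, every liver labelled KO lay above every liver labelled WT, a pattern that 17.7% of all genes tested showed. The exceptions were *Sox9*, *Muc1* and *Cftr*. The liver labelled KO 1 was the highest of the 6 for 9 of 9 genes, against 22.3% of all genes tested. The 9 genes moved together across livers, with Pearson's r between 0.64 and 0.98 for the 36 pairs, which is a description over 6 livers that share their libraries. They are thus not 9 separate observations, and they were chosen with earlier results of these data known. The shares of all genes set beside them, here and below, are therefore a description and not a test of the set.

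**Figure D1:**
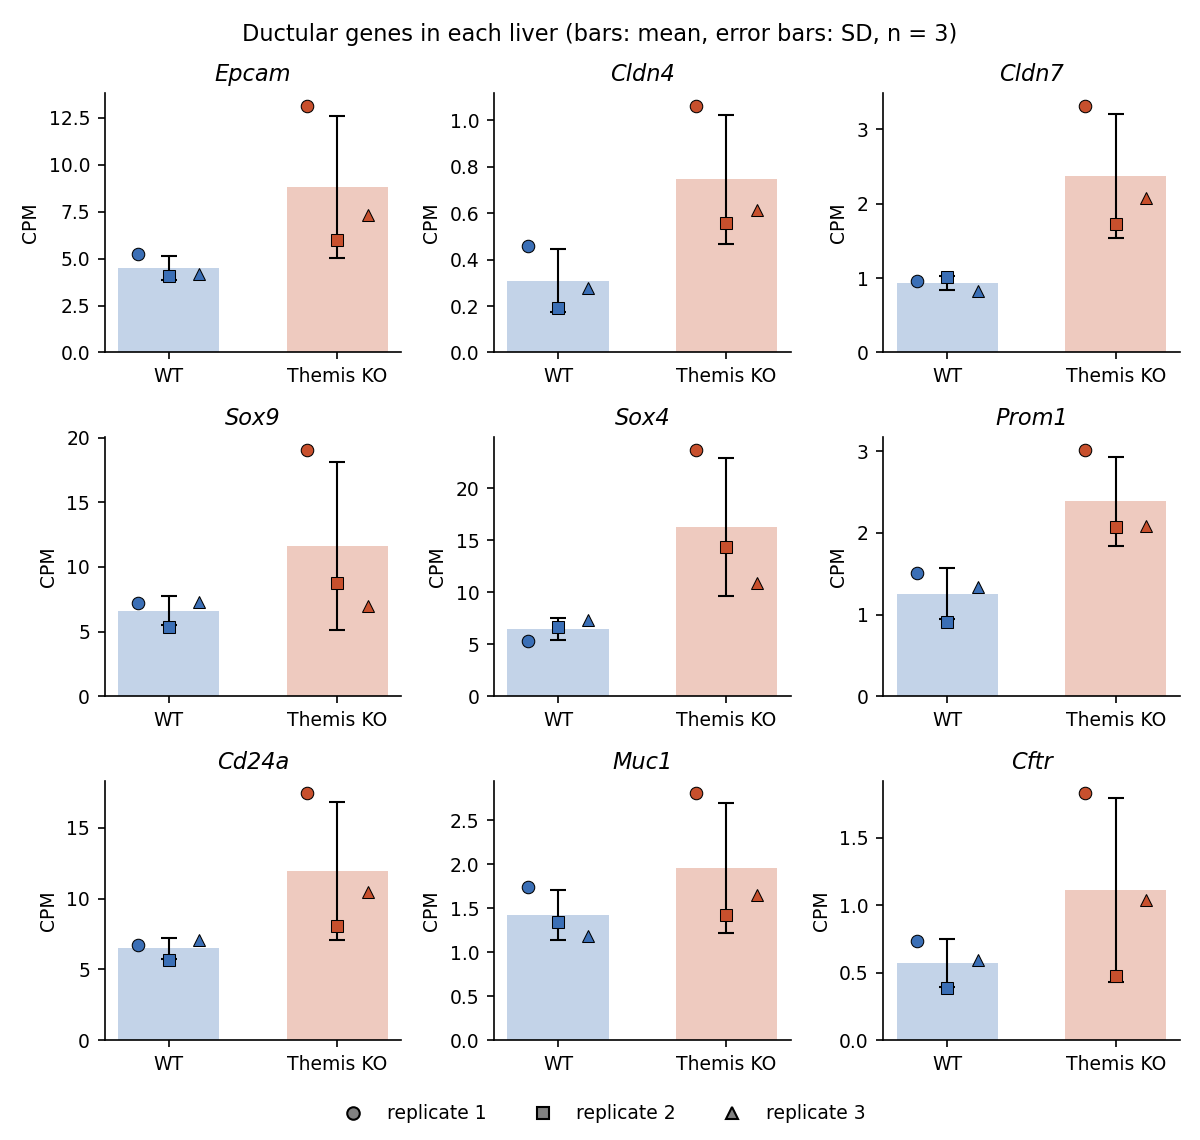
CPM of each ductular gene (vertical axis, from 0) in the 3 livers labelled WT (blue) and the 3 labelled KO (red). Symbols mark the replicate numbers, bars the mean and error bars the SD; the circle of KO 1 is the highest point in every panel, and the groups overlap for *Sox9*, *Muc1* and *Cftr*.

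The first set of genes builds contacts between epithelial cells. EPCAM, encoded by *Epcam* (ENSMUSG00000045394, GRCm38 chr17:87635979-87651129, plus strand), is an adhesion molecule of simple epithelia that marks bile ducts and hepatic progenitors. *Epcam* stood at 5.23, 4.08 and 4.18 CPM in the livers labelled WT and at 13.1, 5.98 and 7.32 CPM in those labelled KO. The lowest KO value lay above the highest WT value, and KO 1 was well above the other 2. The means were 4.50 ± 0.636 and 8.81 ± 3.80 CPM (SD, n = 3 each). Its log2 fold change of 0.97 (SE 0.30, 95% interval 0.29 to 1.66) did not pass the test (edgeR adjusted p = 0.0755).

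Claudin-7 is a tight junction protein that binds EPCAM directly. *Cldn7* (ENSMUSG00000018569, chr11:69964779-69967885, plus strand) had 0.963, 1.01 and 0.829 CPM in the livers labelled WT, from 21 counts in each, and 3.31, 1.72 and 2.08 CPM in those labelled KO, from 78, 40 and 44 counts. The groups were apart, and the WT livers hardly differed among themselves. The mean went from 0.933 ± 0.0932 to 2.37 ± 0.836 CPM (SD, n = 3 each), and the log2 fold change of 1.35 (SE 0.31, 95% interval 0.64 to 2.05) passed the test (edgeR adjusted p = 0.0399). Claudin-4, a barrier-forming claudin of ducts and other tight epithelia, is encoded by *Cldn4* (ENSMUSG00000047501, chr5:134945119-134946934, minus strand). *Cldn4* gave 10, 4 and 7 counts in the livers labelled WT and 25, 13 and 13 in those labelled KO, or 0.459, 0.192 and 0.276 against 1.06, 0.559 and 0.614 CPM. These groups did not overlap either, but counts this low carry wide counting errors (exact Poisson 95% intervals of 4.80 to 18.4 for WT 1 and 6.92 to 22.2 for KO 2 and KO 3, which overlap). The log2 fold change of 1.26 (SE 0.44, 95% interval 0.24 to 2.28) did not pass (edgeR adjusted p = 0.103).

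Other members of the claudin family were read beside these. Of them, 7 passed the filter and 0 passed the test, with a median log2 fold change of 0.11 and 4 of 7 positive. *Cldn8*, another tight junction claudin, had 0.275, 0.288 and 0.355 against 1.27, 0.559 and 0.756 CPM, with the groups apart and a log2 fold change above those of *Cldn7* and *Cldn4* (1.47, SE 0.41, edgeR adjusted p = 0.0626). *Cldn12*, at a far higher level, went the other way, with 83.9, 80.6 and 75.6 against 63.0, 64.8 and 69.1 CPM. Its groups were apart as well (log2 fold change −0.29, SE 0.08, edgeR adjusted p = 0.0641). *Cldn3*, an abundant claudin of hepatocytes and ducts, stood at 71.2, 66.9 and 69.0 CPM in the livers labelled WT and at 60.7, 65.2 and 56.0 CPM in those labelled KO (log2 fold change −0.19, SE 0.08, edgeR adjusted p = 0.178). Every liver labelled KO lay below every liver labelled WT for *Cldn3*. In a comparison chosen after the values were seen, the log2 ratio of *Cldn7* to *Cldn3* was −6.21 ± 0.163 in the livers labelled WT and −4.73 ± 0.524 in those labelled KO (SD, n = 3 each). The groups were apart with a difference of 1.48 (p = 0.1 in an exact permutation test, two-sided, which cannot go lower with 3 livers a group). Since *Cldn7* was higher and *Cldn3* lower in every liver labelled KO, the ratio was bound to separate the groups. The test therefore adds nothing to the values of the 2 genes.

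The second set consists of transcription factors of the SOX family. SOX9 directs bile duct formation in the embryo and, in the adult, marks ducts and hybrid periportal hepatocytes, while SOX4 acts with it in duct development and is also found in other cells under stress. *Sox4* (ENSMUSG00000076431, chr13:28948919-28953713, minus strand) had 5.28, 6.67 and 7.34 CPM in the livers labelled WT and 23.7, 14.3 and 10.9 CPM in those labelled KO. All 3 livers labelled KO lay above the WT range. The mean went from 6.43 ± 1.05 to 16.3 ± 6.63 CPM (SD, n = 3 each), and the log2 fold change of 1.34 (SE 0.28, 95% interval 0.68 to 2.00) passed the test (edgeR adjusted p = 0.0351).

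*Sox9* (ENSMUSG00000000567, chr11:112782224-112787760, plus strand) gave another picture. Its levels were 7.20, 5.33 and 7.30 CPM in the livers labelled WT and 19.1, 8.77 and 6.99 CPM in those labelled KO. KO 3 fell inside the WT range, and KO 1 carried most of the difference between the means of 6.61 ± 1.11 and 11.6 ± 6.53 CPM (SD, n = 3 each). The log2 fold change was 0.81 (SE 0.36, 95% interval −0.02 to 1.65) and did not pass (edgeR adjusted p = 0.171). Without KO 1 it was 0.25, whereas that of *Sox4* was 0.97. The log2 ratio of *Sox4* to *Sox9*, another comparison chosen after the values were seen, was −0.04 ± 0.39 in the livers labelled WT and 0.55 ± 0.21 in those labelled KO (SD, n = 3 each), and these groups overlapped (exact two-sided permutation test, p = 0.2). Of the other SOX genes, 7 passed the filter and 0 passed the test, with a median log2 fold change of 0.17.

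*Sox4* also belongs to the genes that the study's text names for disease-associated hepatocytes, a hepatocyte state of MASH livers. Of 5 further genes taken from that text, 4 passed the test upwards, with a median log2 fold change of 1.58, and the summed level of the list was 127 to 220 CPM in the livers labelled WT and 324 to 595 CPM in those labelled KO. *Klf6*, a stress-responsive zinc finger factor, stood at 23.4, 22.2 and 33.3 against 156, 98.2 and 49.6 CPM, with the same order of the livers labelled KO as *Sox4*. Whether the *Sox4* RNA came from ducts or from such hepatocytes was not tested.

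The third set marks the cell surface of progenitors. *Prom1* (ENSMUSG00000029086, chr5:43993620-44102032, minus strand) encodes prominin-1 or CD133, a cholesterol-binding protein of apical membrane protrusions. Its levels were 1.51, 0.912 and 1.34 CPM in the livers labelled WT and 3.02, 2.06 and 2.08 CPM in those labelled KO. The groups were apart, with means of 1.26 ± 0.310 and 2.39 ± 0.546 CPM (SD, n = 3 each). The log2 fold change of 0.92 (SE 0.27, 95% interval 0.28 to 1.56) did not pass (edgeR adjusted p = 0.0718).

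*Cd24a* (ENSMUSG00000047139, chr10:43578284-43584265, plus strand) encodes the glycosylphosphatidylinositol-anchored glycoprotein CD24, found on ductular cells and also on B cells, neutrophils and red cell precursors. It stood at 6.70, 5.66 and 7.10 CPM in the livers labelled WT and at 17.4, 8.04 and 10.4 CPM in those labelled KO. The groups were again apart, with KO 2 closest to the WT range. The means were 6.49 ± 0.743 and 12.0 ± 4.87 CPM (SD, n = 3 each), and the log2 fold change of 0.88 (SE 0.28, 95% interval 0.24 to 1.52) did not pass (edgeR adjusted p = 0.0795). Of the blood cells that share it, B cell markers passed for 0 of 5 genes (summed level 3.62 to 8.35 CPM in the livers labelled WT and 3.57 to 8.88 CPM in those labelled KO) and neutrophil markers for 0 of 4. The neutrophil sum was nonetheless 6.74, 5.81 and 9.98 CPM against 23.3, 16.3 and 7.70 CPM, also highest in KO 1. Of the red cell precursor markers 0 of 3 passed upwards and 1 downwards, *Alas2* (log2 fold change −0.49, SE 0.11, edgeR adjusted p = 0.0409), with a sum of 188 to 215 CPM in the livers labelled WT and 156 to 227 CPM in those labelled KO. The part of these cells in the *Cd24a* counts was not tested.

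The last set lies at the apical face of the duct. *Muc1* (ENSMUSG00000042784, chr3:89229057-89233381, plus strand) encodes a membrane mucin, and *Cftr* (ENSMUSG00000041301, chr6:18170687-18322768, plus strand) the cAMP-regulated chloride channel through which ducts drive bicarbonate secretion. *Muc1* stood at 1.74, 1.34 and 1.18 CPM in the livers labelled WT and at 2.80, 1.42 and 1.65 CPM in those labelled KO. Apart from KO 1, the values lay within the WT range, and the log2 fold change was 0.47 (SE 0.32, 95% interval −0.27 to 1.20, edgeR adjusted p = 0.349). *Cftr* had 16, 8 and 15 counts in the livers labelled WT and 43, 11 and 22 in those labelled KO, or 0.734, 0.384 and 0.592 against 1.83, 0.473 and 1.04 CPM. KO 2 lay inside the WT range, and the log2 fold change of 0.96 had a 95% interval from −0.22 to 2.13 (SE 0.51, edgeR adjusted p = 0.238).

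Per kilobase of annotated exon, the order of mean levels in the livers labelled WT was *Cd24a* (2.51 CPM per kb), *Epcam* (2.05), *Sox9* (1.60), *Sox4* (1.34), *Muc1* (0.607), *Cldn7* (0.479), *Prom1* (0.175), *Cldn4* (0.170) and *Cftr* (0.0734). In the livers labelled KO, *Sox4* at 3.40 CPM per kb stood before *Sox9* at 2.81, *Cldn7* at 1.22 before *Muc1* at 0.835, and *Cldn4* at 0.410 before *Prom1* at 0.333. The mean ± SD ranges of neighbours in the WT order overlapped, except those of *Sox4* against *Muc1* and *Cldn7* against *Prom1*. In the KO order they overlapped for all neighbours but *Prom1* and *Cftr*, the pairs that changed places included.

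**Figure D2:**
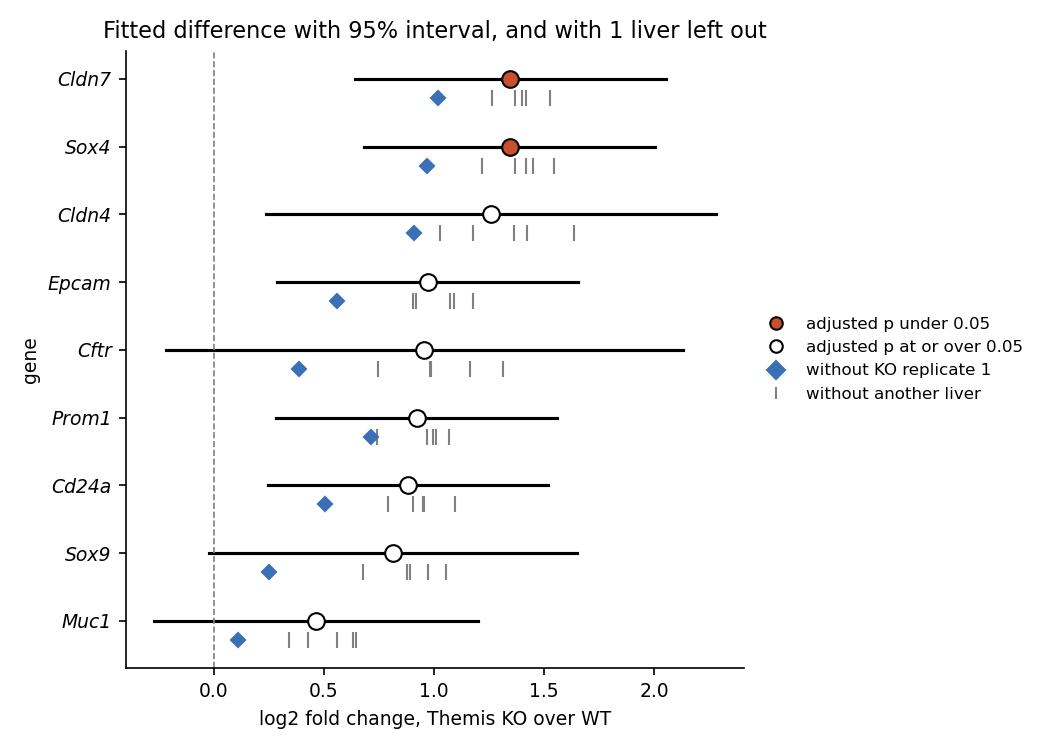
Log2 fold change (KO over WT, horizontal axis) of each ductular gene with its 95% interval (circles with lines, filled where the edgeR adjusted p was under 0.05), and below each the values with 1 liver left out (diamonds without KO 1, ticks without another liver). Every point lies above 0, the intervals of *Cftr*, *Sox9* and *Muc1* reach below it, and the diamond is the lowest point for each gene.

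The size of the difference depended on KO 1, while the sign of the fitted values did not. Without that liver all 9 log2 fold changes were still positive, between 0.11 for *Muc1* and 1.02 for *Cldn7*, with a median of 0.56 against 0.0022 over all genes. For *Muc1*, *Sox9* and *Cftr* they were small (0.11, 0.25 and 0.39, edgeR adjusted p = 0.867, 0.521 and 0.689). The direction of these 3 genes is not established without KO 1. KO 2 and KO 3 both lay above every liver labelled WT for 6 of the 9 genes, which 20.0% of all genes tested did. No ductular gene passed the test without KO 1 (edgeR adjusted p = 0.0920 for *Sox4* and 0.130 for *Cldn7*), in a fit that called 0.0543% of all genes higher. At an unadjusted p under 0.05, 5 of the 9 were higher in that fit, against 10.9% of all genes.

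The calls also ended when other livers were left out. None of the 9 passed without WT 1 (where 0.0809% of all genes passed higher), without WT 2 (0.128%), without WT 3 (3.24%) or without KO 2 (0.183%). At an unadjusted p under 0.05 in the edgeR fits, 6, 5, 5 and 8 of the 9 were higher without these livers in turn, against 11.8%, 12.3%, 15.6% and 11.8% of all genes. Without KO 3, 6 of the 9 passed (*Epcam*, *Cldn7*, *Sox9*, *Sox4*, *Prom1* and *Cd24a*), where 15.0% of all genes passed in the same direction. DESeq2, the tool named in the study's methods, called *Epcam*, *Cldn7*, *Sox4* and *Cd24a*, and 8.02% of all genes higher. With the replicate number as a block, none of the 9 passed (edgeR adjusted p = 0.0985 for *Sox4* and 0.09995 for *Cldn7*), and 0.117% of all genes passed higher. At an unadjusted p under 0.05, 7 of the 9 were higher under the block, against 13.4% of all genes.

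With the mitochondrial type as a covariate, none of the 9 passed either (edgeR adjusted p = 0.450 for *Sox4* and 0.423 for *Cldn7*), and 0.00% of all genes passed higher. At an unadjusted p under 0.05, 2 of the 9 were higher in that edgeR fit, against 5.40% of all genes. In this fit WT 3 is the only liver labelled WT of the type that the livers labelled KO have. It lay below all 3 of them for 7 of the 9 genes, *Sox9* and *Cftr* being the exceptions, as it did for 28.7% of all genes tested.

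The sequence before the start of these genes was read from RefSeq (GRCm38.p6), which matched 7 of the 9 genes with 9 promoters of 300 bases, from 250 before the start to 50 after it. *Sox9* and *Cd24a* had no entry in that table. Promoters are shown for the genes that passed the test, *Sox4* and *Cldn7* (its upstream start), for the other claudin, *Cldn4*, and for *Epcam*, whose protein binds claudin-7. Capitals mark matches, on either strand, to the letters searched for factors of epithelial and biliary genes. These were GGAATG for TEAD factors, TGANTCA for AP-1, AACAAT for SOX factors, AACCNGTT for Grainyhead-like factors, TGGGAA for RBPJ and TATAAA for a TATA box.
*Sox4*, chr13:28953650-28953949, minus strand: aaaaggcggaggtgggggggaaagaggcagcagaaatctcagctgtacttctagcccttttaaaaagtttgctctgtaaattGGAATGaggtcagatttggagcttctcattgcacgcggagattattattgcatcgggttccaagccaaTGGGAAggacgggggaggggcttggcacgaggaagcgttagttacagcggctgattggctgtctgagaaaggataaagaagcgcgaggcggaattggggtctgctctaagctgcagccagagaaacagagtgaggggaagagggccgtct
*Cldn7*, chr11:69964529-69964828, plus strand: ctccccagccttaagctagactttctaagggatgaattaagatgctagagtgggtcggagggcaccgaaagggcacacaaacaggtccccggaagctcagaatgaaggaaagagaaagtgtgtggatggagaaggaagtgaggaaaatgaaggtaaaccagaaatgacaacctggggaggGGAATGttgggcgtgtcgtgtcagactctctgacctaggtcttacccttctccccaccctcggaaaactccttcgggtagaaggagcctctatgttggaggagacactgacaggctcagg
*Cldn4*, chr5:134946885-134947184, minus strand: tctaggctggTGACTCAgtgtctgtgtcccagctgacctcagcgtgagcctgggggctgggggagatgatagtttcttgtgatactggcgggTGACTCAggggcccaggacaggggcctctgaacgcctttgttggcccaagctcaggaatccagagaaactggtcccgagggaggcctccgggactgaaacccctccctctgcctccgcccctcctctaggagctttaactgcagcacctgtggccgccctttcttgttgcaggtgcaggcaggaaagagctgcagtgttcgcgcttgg
*Epcam*, chr17:87635729-87636028, plus strand: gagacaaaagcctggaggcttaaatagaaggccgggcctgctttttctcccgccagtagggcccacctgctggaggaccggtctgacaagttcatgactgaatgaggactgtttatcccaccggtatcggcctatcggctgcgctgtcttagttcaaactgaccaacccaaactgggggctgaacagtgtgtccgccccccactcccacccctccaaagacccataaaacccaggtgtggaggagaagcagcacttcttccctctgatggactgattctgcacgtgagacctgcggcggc

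*Sox4* and *Cldn7* both held the TEAD letters, with the match starting 168 and 70 bases before the start, and *Muc1* held them as well. These letters occurred in 14.7% of the 32851 promoters of the same length. The RBPJ letters were found in *Sox4*, in the downstream start of *Cldn7* and in 1 start of *Prom1*, and 25.6% of all promoters held them. *Cldn4* held the AP-1 letters at 2 places, starting 240 and 158 bases before the start, and both starts of *Prom1* held an AP-1 and a Grainyhead-like match. Over all promoters, 7.81% held the AP-1 letters and 2.09% the Grainyhead-like letters. *Epcam* and *Cftr* held none of the letters in this window, and no ductular promoter held those for SOX factors (10.7% of all promoters). The TATA letters were found before *Muc1* alone, against 13.6% of all promoters. The matches are letters only and did not set apart the genes that passed the test, since *Muc1* had 3 kinds of match and did not pass.

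The 9 genes were set beside other genes of bile duct cells. The cholangiocyte identity list held 12 genes, 10 of them tested, and 1 of 10 passed the test upwards and 0 downwards. The median log2 fold change was 0.68, with 8 of 10 positive. *Cldn3*, described above, is a member of this list that went the other way (−0.19). The gene that passed was *Spp1*, which encodes osteopontin, secreted by ducts and also by macrophages. *Spp1* stood at 137, 180 and 163 CPM in the livers labelled WT and at 571, 367 and 366 CPM in those labelled KO (log2 fold change 1.44, SE 0.20, edgeR adjusted p = 0.0131). The duct cytokeratins followed the order of *Epcam* in part. *Krt7* had 1.06, 0.912 and 1.42 against 3.87, 1.51 and 2.17 CPM, with the groups apart (log2 fold change 1.14, SE 0.38, edgeR adjusted p = 0.0923). *Krt19* had 1.65, 1.15 and 2.25 against 4.63, 2.02 and 1.94 CPM, so that only KO 1 left the WT range (log2 fold change 0.76, SE 0.41, edgeR adjusted p = 0.242). KO 1 was the highest liver for 8 of the 10 genes tested, and without it the median of the list was 0.38.

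**Figure D3:**
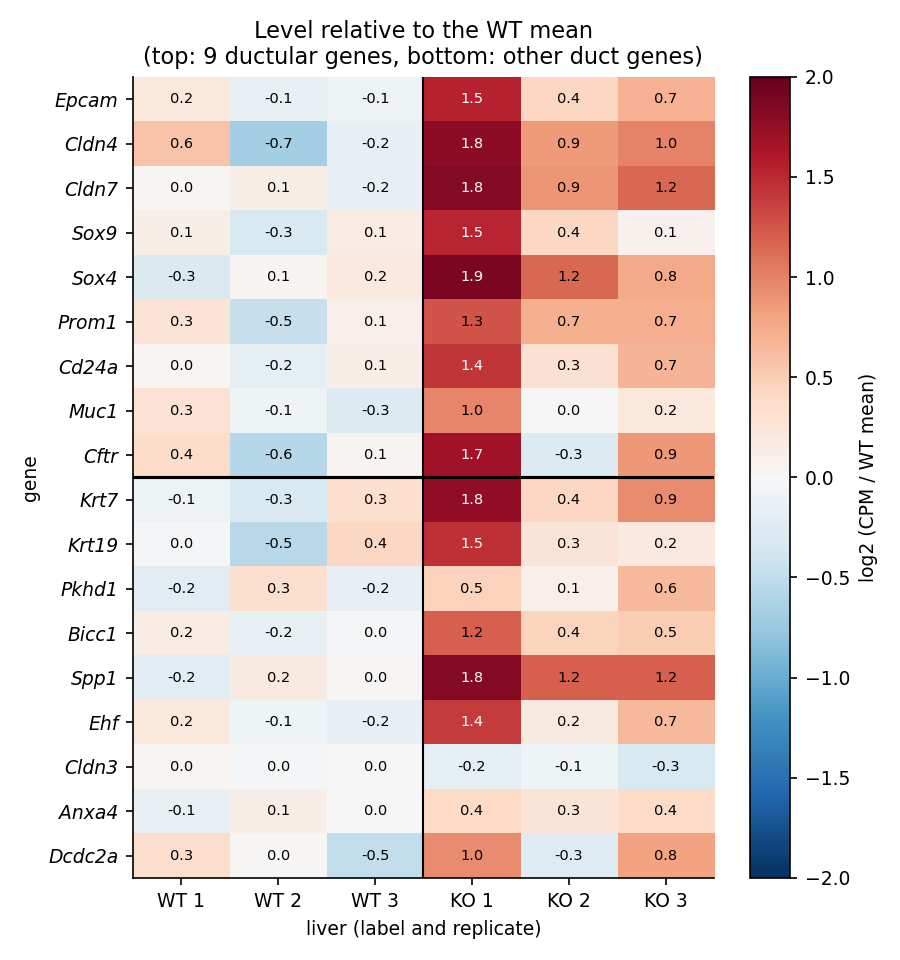
Log2 of CPM over the WT mean (color, and numbers in the cells) for the 9 ductular genes above the line and 9 of the 10 tested genes of the cholangiocyte identity list below it, in the 6 livers (columns). The column of KO 1 is the darkest for all 9 ductular genes, while *Cldn3* stays near 0 in each liver.

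In the list of progenitor and ductular reaction genes, 2 of 9 tested passed upwards and 0 downwards, with a median of 0.88. *Lcn2*, an iron-siderophore-binding protein that injured hepatocytes also make, had 65.7, 48.0 and 57.9 CPM in the livers labelled WT and 120, 197 and 128 CPM in those labelled KO (log2 fold change 1.37, SE 0.20, edgeR adjusted p = 0.0161). *Tspan8*, a tetraspanin that forms complexes with EPCAM and claudin-7, had 3.72, 1.68 and 3.63 against 14.6, 9.68 and 6.47 CPM (log2 fold change 1.76, SE 0.37, edgeR adjusted p = 0.0345). The TWEAK receptor gene *Tnfrsf12a*, whose ligand drives progenitor growth, had 12.6, 11.2 and 34.0 against 157, 132 and 32.0 CPM. KO 3 lay within the WT range for this gene (log2 fold change 2.47, SE 0.63, edgeR adjusted p = 0.0509). The other direction was seen in *Krt23* (−0.68, SE 0.21, edgeR adjusted p = 0.0734) and in *Lgr5*, a WNT target of pericentral hepatocytes (−0.88, SE 0.23, edgeR adjusted p = 0.0562).

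The proteases and inhibitors that act on EPCAM and claudin-7 were read with other epithelial genes. In that list 1 of 12 tested genes passed upwards and 0 downwards, with a median of 0.76 and 12 of 12 positive. *St14*, which encodes matriptase, the protease that cleaves EPCAM and releases claudin-7 from it, had 1.38, 1.78 and 1.14 CPM in the livers labelled WT and 4.08, 2.97 and 2.83 CPM in those labelled KO (log2 fold change 1.21, SE 0.25, edgeR adjusted p = 0.0337). The groups were well apart, and KO 1 was again the highest. *Spint1*, its inhibitor, had 1.56, 0.768 and 1.54 against 3.10, 1.55 and 2.22 CPM and did not pass (log2 fold change 0.82, SE 0.36, edgeR adjusted p = 0.165), and *Grhl2*, a Grainyhead-like regulator of claudin and other epithelial genes, had a log2 fold change of 1.51 (SE 0.43, edgeR adjusted p = 0.0656).

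Genes for ductal secretion and for cell fate gave few calls. In the secretion list 0 of 8 tested genes passed (median 0.12), the smallest p belonging to *Itpr3*, the calcium channel of cholangiocytes (log2 fold change 0.56, SE 0.17, edgeR adjusted p = 0.0689). Among regulators of biliary fate 0 of 8 passed (median 0.26), with fold changes in both directions. *Onecut1*, a factor of hepatocyte and duct development, had 72.8, 55.8 and 23.6 CPM in the livers labelled WT and 18.4, 31.3 and 13.4 CPM in those labelled KO, with overlapping groups (log2 fold change −1.27, SE 0.43, edgeR adjusted p = 0.0967). Its relative *Onecut2* had a log2 fold change of −0.19 (SE 0.09, edgeR adjusted p = 0.182), with every liver labelled KO below those labelled WT. The Notch ligand *Jag1* had 9.68, 9.36 and 9.31 against 20.0, 15.7 and 10.2 CPM (log2 fold change 0.69, SE 0.22, edgeR adjusted p = 0.0867), and the receptor *Notch2* had a log2 fold change of 0.33 (SE 0.09, edgeR adjusted p = 0.0629). Among regulators of hepatocyte fate 1 of 6 passed downwards and 0 upwards (median −0.29). It was *Tbx3*, a repressor linked to the hepatoblast state, with 42.8, 40.5 and 50.9 against 29.5, 31.5 and 28.7 CPM (log2 fold change −0.58, SE 0.11, edgeR adjusted p = 0.0262).

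Whether the ductular genes differed by more than the duct markers of the same liver was examined by the log2 ratio of each gene to the summed identity list. The median of the 9 ratios was −7.79 ± 0.321 in the livers labelled WT and −7.98 ± 0.101 in those labelled KO (SD, n = 3 each), a difference of −0.19 (exact two-sided permutation test, p = 0.5). No gene had its groups apart, and the smallest p of the 9 exact permutation tests was 0.2 (0.6 after adjustment over the 9). *Spp1* took between 45.7% and 51.6% of the sum in the livers labelled WT and between 66.7% and 73.8% in those labelled KO. Left out of the sum, a setting chosen after the data were seen, it gave a difference of 0.55 with the groups apart for the median and for 6 of the 9 genes (p = 0.1 in the exact permutation test, its lowest value, and 0.15 after adjustment over the 9 for each of the 6). In that smaller sum *Cldn3*, which hepatocytes share, and *Anxa4* together took between 67.5% and 76.9% in the 6 livers. Against *Krt19* alone the difference was 0.03 (exact two-sided permutation test, p = 0.9). The comparison with duct markers thus turned on which marker stood in the denominator.

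The mean of the centered log2 CPM of the 9 genes was −0.26, −0.63 and −0.42 in the livers labelled WT and 1.05, 0.05 and 0.22 in those labelled KO. The genes outside the set with the profile most like it over the 6 livers, among 13036 genes with a mean of at least 1 CPM, were *Bicc1* (Pearson's r = 0.998), *Ptpn13* (0.992), *Stard3* (0.984), *Sema5a* (0.983) and *Dagla* (0.983). *Bicc1*, an RNA-binding protein whose loss gives cysts in ducts and kidney tubules and a gene of the identity list, had 9.72, 7.87 and 8.60 against 20.1, 11.9 and 12.5 CPM. Over the 6 livers, 199 genes, or 1.53%, had r over 0.9.

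Markers of other cell types were read beside these values. For hepatocytes 2 of 8 genes passed downwards and 0 upwards, and their sum was 60919 to 63989 CPM in the livers labelled WT and 46688 to 52693 CPM in those labelled KO. For macrophages 3 of 7 passed upwards (sum 160 to 291 against 257 to 340 CPM), and for hepatic stellate cells 3 of 7 (331 to 376 against 461 to 467 CPM). Of the proliferation markers 1 of 5 passed upwards, *Mki67*. KO 1 was the highest liver for 0 of the 7 macrophage genes and 2 of the 7 stellate cell genes, but for 4 of the 5 genes of disease-associated hepatocytes and 4 of the 4 neutrophil genes tested, so that the ductular genes were not alone in this. Mesothelium, which shares *Krt19*, had a summed level of 0.720 to 1.78 CPM in the livers labelled WT and 0.756 to 2.13 CPM in those labelled KO, with KO 3 near the lowest. Pancreatic acinar markers, as a sign of neighbouring organ in the sample, stayed at or under 0.474 CPM in sum, and of the intestinal markers only *Fabp2*, which liver may also express, was above the filter (88.8 to 139 CPM). The part of these cell types in the ductular values was not tested.

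**Figure D4:**
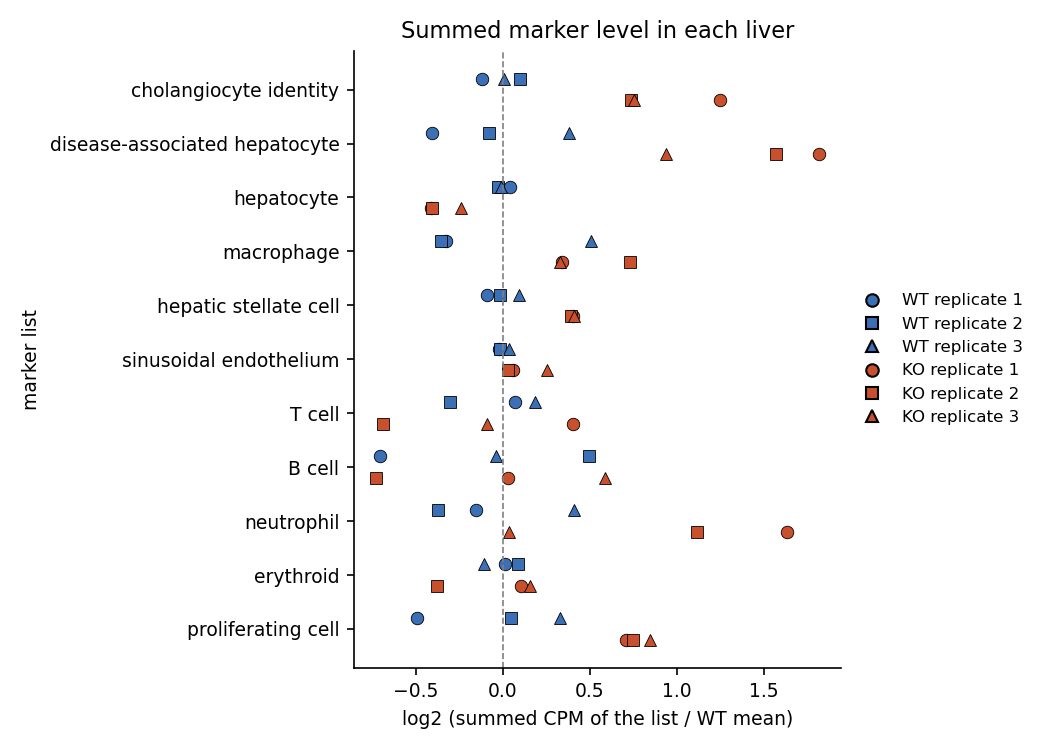
Log2 of the summed CPM of each marker list over its WT mean (horizontal axis) in the 3 livers labelled WT (blue) and the 3 labelled KO (red), with symbols for the replicate numbers. The cholangiocyte identity sum places all 3 livers labelled KO above the WT livers and KO 1 highest, the hepatocyte sum places them below, and the macrophage and neutrophil sums overlap. *Spp1*, which macrophages also secrete, makes 45.7% to 51.6% of the cholangiocyte identity sum in the livers labelled WT. In those labelled KO it makes 66.7% to 73.8%, so this sum largely follows *Spp1*.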

How the data were processed

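The authors trimmed reads with cutadapt 2.3, mapped them to GRCm38 with STAR 2.7.8a and deposited RSEM 1.3.3 estimated counts per gene, which are whole numbers in the table and are not normalized. The annotation release and the strand setting are not given in the sources used here. Reads of *Sox4*, *Prom1*, *Cftr* and *Themis* therefore cannot be fully told from those of genes that overlap them in GENCODE vM21. That release is the source of coordinates and exon lengths.

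Counts were analysed with edgeR 4.0.16 in R 4.3.3 (filterByExpr, TMM, glmQLFit and glmQLFTest on all 6 livers, no covariate), with Benjamini-Hochberg adjustment over the 14496 genes tested and a threshold of 0.05. DESeq2 1.42.0, other scalings and filters, a replicate block, the mitochondrial type as a covariate and leaving out each liver were alternatives. Nothing says which livers make a pair, and same-numbered livers did not deviate together (mean r = −0.13). The main edgeR fit was tested on simulated counts with the same dispersion for every gene. It recovered 200 of 200 genes changed by a log2 fold change of 1.5 up or down, with 8 false calls. No pair of libraries agreed within sampling noise. KO 1 and KO 2 were the closest pair, with a chi-square per degree of freedom of 9.83. The next pair, WT 1 and WT 3, had 27.5, and the farthest, WT 1 and KO 1, had 89.7. The labels give 1 liver per sample. The edgeR p-values set the difference between the labels against the variation between these samples, estimated with information shared across genes.

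The 9 genes and the lists were chosen with earlier results of these data known. The genes named are *Themis*, the 9 genes, up to 5 genes per list with the smallest p, *Krt19*, *Krt7*, *St14* and *Spint1*, the 5 genes of most similar profile (log2 of CPM + 0.1), and markers of other cells that moved with a ductular gene. Values of a gene named by this choice are left out here. *Cldn8*, *Cldn12* and the ratios to *Cldn3* were chosen after their values were seen. Poisson intervals cover counting error only.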

Additional observations from a re-analysis of the deposited data

How the results depend on the processing

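The log2 fold change of each ductular gene was positive under every alternative that gave a value, and the median of the 9 lay between 0.56 and 1.18. The number that passed moved from 2 to 4 with total counts alone as the scaling, to 4 with no low count filter, to 4 with DESeq2, to 0 with the replicate block, to 0 with the mitochondrial type as a covariate and to between 0 and 6 with each liver left out. It was 0 without any of WT 1, WT 2, WT 3, KO 1 or KO 2, and 6 without KO 3. Of the cholangiocyte identity genes 1 passed, against 3 with total counts alone, 3 with no filter, 3 with DESeq2, 0 with the replicate block, 0 with the mitochondrial covariate and 0 to 2 with a liver left out. Over all genes 1321 passed, against 2179 with no filter, 2279 with DESeq2, 62 with the replicate block, 3 with the mitochondrial covariate, 431 with a 2-fold minimum and 20 to 4267 with a liver left out. The difference relative to the summed identity genes, −0.19, became 0.55 without *Spp1* in the sum, an alternative chosen after seeing the data, and ran from −0.31 to −0.0075 with a liver left out. The causes were not tested. *Cldn4* and *Cftr* had no value under the filter of 10 counts in every liver, having fewer counts than that in at least 1 liver.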

Other observations

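Epithelial genes too low to be tested are given here as values, chosen after they were seen. *Rab25*, a small GTPase of epithelial vesicle recycling, stood at 0.0459, 0.0480 and 0.197 CPM in the livers labelled WT and at 0.595, 0.430 and 0.331 CPM in those labelled KO. *Muc13*, a membrane mucin, stood at 0.0917, 0.0480 and 0.0789 against 0.255, 0.559 and 0.472 CPM. The groups did not overlap for either gene. Of 21 untested genes of the cholangiocyte, progenitor, epithelial, claudin and mucin lists, 3 had every liver labelled KO above every liver labelled WT, against 17.7% of all genes tested, and these values rest on a few reads per liver.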
